A study of Mus musculus with 3 samples.

Results

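The genes described here are 10 genes of the mammalian circadian clock, chosen by name: *Arntl*, *Clock*, *Per1*, *Per2*, *Per3*, *Cry1*, *Cry2*, *Nr1d1*, *Nr1d2* and *Dbp*. They were looked up by symbol among the 15554 rows of an expression table, and each of the 10 had 1 row. All groups were NIH3T3 cells, a mouse embryonic fibroblast line, starved of serum and then given fresh serum-free medium for 24 h without a factor (CTRL), with GDF15 protein at 100 ng/mL or with TGF-β protein at 4 ng/mL. Both factors are secreted proteins of the TGF-β superfamily, and the study asked how the fibroblast response to GDF15 compares with that to TGF-β. RNA from 3 samples was pooled for each treatment into a single library, so nothing below is checked by replicates and p-values are not given. Expression is in FPKM, a fragment number scaled to transcript length and to library depth, so levels of different genes can be compared.

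The clock of mammalian cells is a loop of transcription that takes about a day. The proteins of *Arntl* (BMAL1) and *Clock* bind as a pair to E-box sequences and activate the *Per* and *Cry* genes, whose proteins in turn repress that pair. In a linked loop, BMAL1 and CLOCK activate *Nr1d1* and *Nr1d2* (REV-ERBα and REV-ERBβ), which repress *Arntl* at ROR elements, where the ROR proteins activate it. The output activator DBP and its antagonist NFIL3 (E4BP4) compete at D-box sequences, and *Dbp* is itself a direct target of BMAL1 and CLOCK. Cultured fibroblasts hold such clocks, which serum and fresh medium can set. TGF-β family ligands are also known to reset them, and *Bhlhe40* (DEC1), a repressor at E-boxes, has been described in that response. At 1 time point a shift in the phase and a shift in the mean level of a rhythmic gene cannot be told apart.

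Promoter sequences from RefSeq (GRCm38.p6) were found for 9 of the 10 genes, in 13 windows that run from 250 bases before to 50 bases after an annotated start of transcription. They are shown because clock genes act on each other through short sites of this kind. The letters searched, on both strands, were CACGTG (E-box), AGGTCA (the core of the ROR element), TTATGTAA (D-box) and TGACGTCA (CRE, the site of CREB). An E-box was present in 2 of the 13 windows, against 7.15% of all 32851 windows of the same length. The ROR core was present in 4 windows, against 16.3% of all. The D-box was present in 1 window, against 0.938% of all, and a CRE was present in 0 windows, against 1.79% of all. No match overlapped another. The windows of *Cry2*, *Nr1d1* and *Dbp* held none of these letters, which says nothing about sites elsewhere.

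The bases before the start are printed for *Dbp*, whose transcript differed most between the libraries, for *Per3*, whose window holds the D-box at offsets of -205 and -158 from the start, and for *Cry1* and *Per1*, whose windows hold an E-box at offsets of -60 and -166. Capitals mark the matches. In *Per1* they mark the E-box and then the ROR core, which is read on the opposite strand.
*Dbp* (chr7:45704997-45705246, plus strand): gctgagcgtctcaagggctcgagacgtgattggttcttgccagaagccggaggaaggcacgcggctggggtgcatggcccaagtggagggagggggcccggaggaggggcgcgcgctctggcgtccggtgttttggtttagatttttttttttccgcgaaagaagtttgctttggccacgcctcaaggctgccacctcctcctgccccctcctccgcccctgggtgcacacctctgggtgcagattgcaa
*Per3* (chr4:151044666-151044915, minus strand): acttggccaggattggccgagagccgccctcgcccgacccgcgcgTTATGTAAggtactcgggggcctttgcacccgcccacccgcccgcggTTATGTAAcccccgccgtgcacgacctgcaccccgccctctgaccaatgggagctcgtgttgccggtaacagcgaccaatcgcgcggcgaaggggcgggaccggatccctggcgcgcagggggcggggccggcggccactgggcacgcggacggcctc
*Cry1* (chr10:85185055-85185304, minus strand): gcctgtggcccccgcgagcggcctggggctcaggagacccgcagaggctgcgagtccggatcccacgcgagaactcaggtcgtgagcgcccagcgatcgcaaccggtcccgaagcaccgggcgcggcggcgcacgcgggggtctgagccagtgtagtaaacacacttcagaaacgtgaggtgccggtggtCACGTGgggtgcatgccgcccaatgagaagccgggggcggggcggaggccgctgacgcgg
*Per1* (chr11:69098699-69098948, plus strand): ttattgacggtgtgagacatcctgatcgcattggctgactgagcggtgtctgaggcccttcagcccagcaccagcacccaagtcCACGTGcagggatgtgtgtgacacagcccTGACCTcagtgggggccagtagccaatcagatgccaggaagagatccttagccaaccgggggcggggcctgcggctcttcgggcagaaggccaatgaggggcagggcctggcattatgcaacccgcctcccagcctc
The other ROR cores lay at an offset of -119 from a start of *Clock*, -77 from the start of *Nr1d2* and 32 from a start of *Arntl*. These matches describe the sequence, and the data hold no measure of binding.

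By their markers the libraries were fibroblast. Of 9 fibroblast markers, 8 were over an FPKM of 1 in each library, and *Fap* was under 1. Their summed FPKM lay between 11705 and 12685. All 5 epithelial and all 4 endothelial markers were under 1 (summed FPKM at most 0.735 and 0.329), and of 4 leukocyte markers only *Cd68* was over 1, with at most 1.67. Judged by the steps between low FPKM values, the depth was about 16650000 fragments for CTRL, 19500000 for the GDF15 library and 15750000 for the TGF-β library. Intervals below are 95% intervals from estimated fragments and cover counting error only.

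All 10 clock genes were expressed, with FPKM from 3.07 (*Cry1* in TGF-β) to 31.7 (*Nr1d1* in CTRL). In CTRL, the order from the highest was *Nr1d1* with an FPKM of 31.7, *Cry2* with 18.4, *Dbp* with 18.4, *Per3* with 16.4, *Nr1d2* with 11.8, *Per1* with 10.5, *Arntl* with 6.22, *Clock* with 6.11, *Per2* with 3.33 and *Cry1* with 3.23. Among neighbours in this order, the counting intervals overlapped between *Cry2* and *Dbp*, *Dbp* and *Per3*, *Nr1d2* and *Per1*, *Arntl* and *Clock*, and *Per2* and *Cry1*. *Nr1d1* was above 87.6% of all rows in CTRL and *Cry1* above 47.6%. The member that changed its place most was *Dbp*, which was above 77.9% (CTRL), 70.6% (GDF15) and 62.4% (TGF-β) of all rows. In TGF-β its neighbours were *Per1* and *Arntl*, and its interval overlapped both of theirs.

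**Figure D1:**
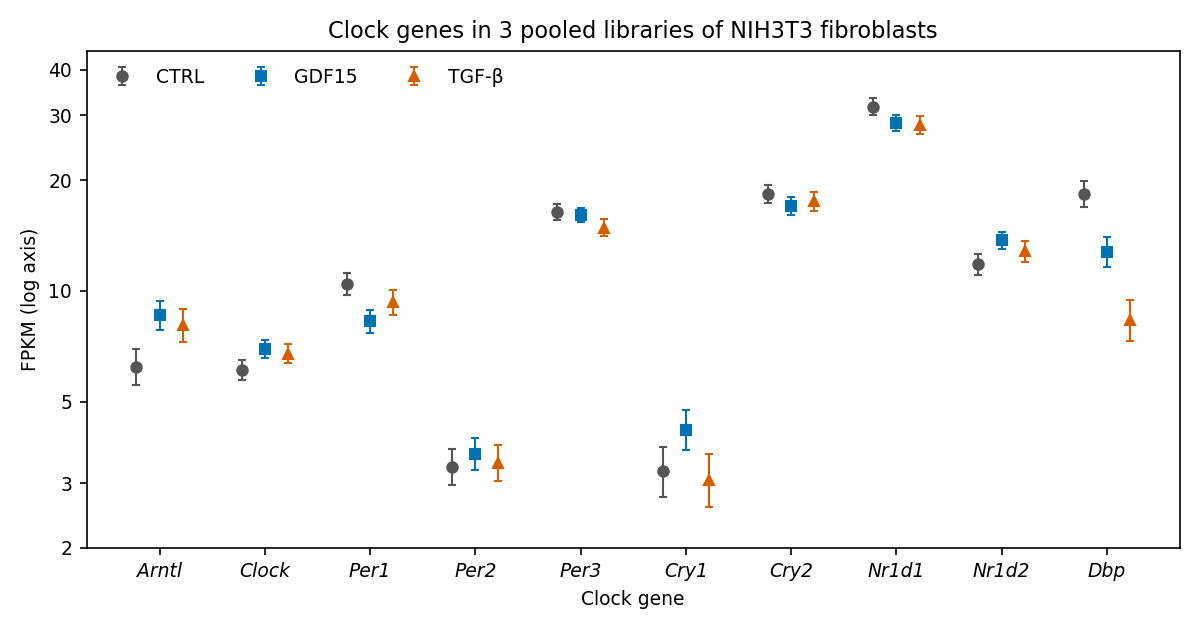
FPKM (log axis) of the 10 clock genes in the CTRL, GDF15 and TGF-β libraries, 1 library each. Bars are 95% counting intervals from estimated fragments. *Dbp* steps down from 18.4 to 12.8 and 8.33. The other genes stay within 1.5-fold of their CTRL value, with *Arntl* at 1.38 times CTRL in GDF15.

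The change of a gene is the difference of its log2(FPKM + 1) between libraries, a scale that understates changes at low FPKM. By GDF15, 0 of the 10 clock genes passed 2-fold (0.289% of all genes did) and 0 passed 1.5-fold (1.81% of all genes). By TGF-β, 1 of the 10, *Dbp*, passed 2-fold (0.913% of all genes did), and it was also the 1 member past 1.5-fold (3.6% of all genes). For TGF-β against GDF15, 0 members passed 2-fold (0.103% of all genes) and 0 passed 1.5-fold (1.02%), although *Dbp*, at -0.56, passed 1.5-fold with a pseudocount of 0.5 or 0.1 or with none (-0.59 to -0.62). All members are expressed, and among the 9226 genes averaging an FPKM of 1 or more the shares past 2-fold and 1.5-fold were larger, at 0.477% and 2.82% by GDF15, 137 genes and 5.59% by TGF-β, and 0.163% and 1.54% for TGF-β against GDF15. The median change of the 10 was 0.03 by GDF15 and -0.06 by TGF-β, beside medians of -0.03 and -0.07 over the 9226 genes averaging an FPKM of 1 or more. By GDF15, 5 members were higher and 5 lower than in CTRL, and by TGF-β 4 were higher and 6 lower, where 44.4% and 37.2% of the 9226 genes were higher. These splits turned with the processing, to 3 higher and 7 lower by GDF15 without the trend by transcript length and to 6 higher and 4 lower by TGF-β without the running median by expression. For TGF-β against GDF15, 2 were higher and 8 lower, with a median of -0.07, beside 39.7% higher and a median of -0.04 over the 9226 genes. That split was 5 to 5 without the running median by expression and also without the trend by transcript length.

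A narrower yardstick is the local spread, a scaled median absolute deviation among the changes of genes with similar mean expression. For the clock genes it was between 0.19 and 0.23 in both comparisons with CTRL. By GDF15, 5 of the 10 genes lay more than 1 local spread from the local median, *Arntl*, *Cry1* and *Nr1d2* above and *Per1* and *Dbp* below, whereas 32.2% of the 9226 genes did so. By TGF-β, 2 of the 10 did, *Arntl* above and *Dbp* below, against 33.3%. For TGF-β against GDF15, 3 of the 10 did, *Per1* above and *Cry1* and *Dbp* below, against 33.3%. Both comparisons with CTRL share that library, so a deviation of CTRL alone would appear in both.

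**Figure D2:**
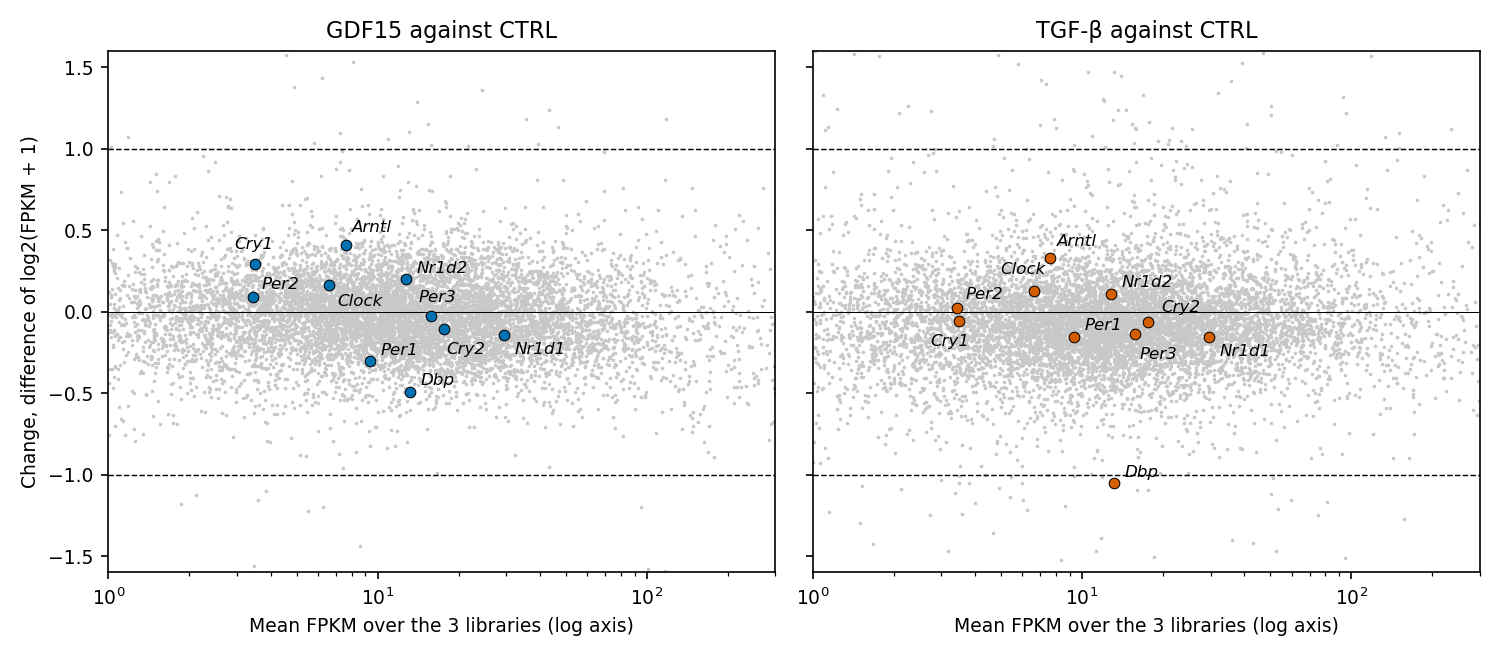
Change on the log2(FPKM + 1) scale against mean FPKM (log axis) for GDF15 and for TGF-β against CTRL. Grey points are the other genes averaging an FPKM of 1 or more, coloured points are the clock genes and dashed lines mark 2-fold. *Dbp*, at -1.05, is the 1 clock gene past the dashed line in TGF-β, and its change in GDF15 was -0.49.

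*Dbp* (chromosome 7 of GRCm38, 45705088 to 45710203, plus strand, 4 exons) encodes the transcription factor that carries the output of the clock at D-boxes. Its FPKM was 18.4 (CTRL), 12.8 (GDF15) and 8.33 (TGF-β), an estimated 562, 458 and 241 fragments. CTRL was the highest and TGF-β the lowest library, and the 3 counting intervals did not overlap. The FPKM ratio to CTRL was 0.696 (counting interval 0.614 to 0.789) for GDF15 and 0.454 (0.388 to 0.528) for TGF-β, and the ratio of TGF-β to GDF15 was 0.652 (0.555 to 0.763). The change by TGF-β was -1.05, at -4.94 local spreads from the local median and with the rank of 40 among the decreases of all genes. It stands close to the 2-fold criterion, since it was -0.99 when all libraries were scaled to 1 upper quartile, -0.97 without the running median by expression and -0.93 without the trend by transcript length. The change by GDF15 was -0.49, at -1.99 local spreads and with the rank of 317. In bulk RNA, fewer cells that express a gene and less RNA per cell cannot be told apart.

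The exons of *Dbp* share 539 bases with those of *Sphk2*, a sphingosine kinase gene on the opposite strand. *Sphk2* had an FPKM of 7.48 (CTRL), 6.89 (GDF15) and 6.42 (TGF-β), so it was lower where *Dbp* was lower, but by less. The FPKM ratio of *Dbp* to *Sphk2* was 2.46, 1.86 and 1.299 in that sequence of libraries. The library kit keeps strand, but whether it was used in counting is not given in the sources used here, and the part of shared reads in these values was not tested.

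Of the activators, *Arntl* was higher in both stimulated libraries. *Arntl* (chromosome 7, 113207465 to 113314126, plus strand, 21 exons) had an FPKM of 6.22 (CTRL), 8.59 (GDF15) and 8.06 (TGF-β), an estimated 308, 498 and 378 fragments. CTRL was the lowest library, and the intervals of the stimulated libraries overlapped each other. The ratio to CTRL was 1.38 (1.195 to 1.597) for GDF15 and 1.295 (1.11 to 1.51) for TGF-β. The changes of 0.41 and 0.33 lay 1.97 and 1.91 local spreads above the local median, and neither passed a fold criterion. *Clock* (chromosome 5, 76209868 to 76304792, minus strand), the partner of *Arntl*, had an FPKM of 6.11, 6.95 and 6.75. Its changes of 0.16 and 0.13 stayed within 1 local spread of the local median, and the former was -0.01 without the trend by transcript length, where that of *Arntl* was 0.43. With 9744 bases the coding transcript of *Clock* is the longest of the 10.

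Among the *Per* genes, which encode repressors, the values differed little and not in 1 direction. *Per1* (chromosome 11, 69095217 to 69109960, plus strand), a rapidly induced member, had an FPKM of 10.5 (CTRL), 8.27 (GDF15) and 9.30 (TGF-β). GDF15 was the lowest library, with a ratio to CTRL of 0.791 (0.715 to 0.874) and a change of -0.31, at -1.481 local spreads. *Per2* (chromosome 1, 91415982 to 91459324, minus strand) was nearly level, with an FPKM of 3.33, 3.60 and 3.40. *Per3* (chromosome 4, 151003652 to 151044665, minus strand), whose window holds the D-boxes printed above, had an FPKM of 16.4, 16.1 and 14.8. Its change by TGF-β was -0.14, at -0.318 local spreads. *Per3* was the most abundant *Per* transcript in each library, at 4.93, 4.46 and 4.37 times the FPKM of *Per2*.

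*Cry1* and *Cry2* encode the other repressors of the main loop. *Cry1* (chromosome 10, 85131700 to 85185064, minus strand) had an FPKM of 3.23 (CTRL), 4.19 (GDF15) and 3.07 (TGF-β), an estimated 163, 247 and 146 fragments, the fewest of the 10 genes. It was the 1 member higher in GDF15 than in both other libraries with counting intervals of both ratios that exclude 1. The ratio of GDF15 to CTRL was 1.297 (1.06 to 1.59) and that of TGF-β to GDF15 was 0.733 (0.592 to 0.902). Such intervals were common, since those of 52.4% and 40.2% of 9191 expressed genes excluded 1 in these 2 comparisons. The change of *Cry1* from GDF15 to TGF-β was -0.35, at -1.54 local spreads, and passed no fold criterion. *Cry2* (chromosome 2, 92403646 to 92434043, minus strand) had an FPKM of 18.4, 17.03 and 17.5, and the counting intervals of its ratios to CTRL included 1. The FPKM ratio of *Cry2* to *Cry1* was 5.69 (CTRL), 4.07 (GDF15) and 5.72 (TGF-β).

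The nuclear receptor pair lay on opposite sides of CTRL by small amounts. *Nr1d1* (chromosome 11, 98767932 to 98775333, minus strand) had an FPKM of 31.7 (CTRL), 28.6 (GDF15) and 28.3 (TGF-β), with changes of -0.14 and -0.16. *Nr1d2* (chromosome 14, 18204054 to 18239127, minus strand) had an FPKM of 11.8, 13.7 and 12.8, with changes of 0.20 and 0.11. Of these 4 changes, that of *Nr1d2* by GDF15 was 1.02 local spreads above the local median and the others were within 1. The exons of *Nr1d1* share 263 bases with those of *Thra*, the thyroid hormone receptor gene on the opposite strand, which had an FPKM of 56.3, 54.3 and 47.6.

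The counting intervals were narrow beside the differences between libraries in many genes. The interval of the ratio excluded 1 for 7 clock genes by GDF15, 4 above and 3 below, and for 6 by TGF-β, 2 above and 4 below. It also did so for 52.4% and 53.7% of the 9191 genes that averaged an FPKM of 1 or more and had an annotated length. For TGF-β against GDF15 the interval excluded 1 for 1 clock gene above and 3 below, beside 40.2% of the 9191 genes.

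A list of 33 further clock-related genes was followed beside the 10. All 33 were in the table, and 29 averaged an FPKM of 1 or more. On the log2(FPKM + 1) scale, 0 of the 33 passed 1.5-fold by GDF15 (1.81% of all genes did) and 0 for TGF-β against GDF15 (1.02%). By TGF-β 2 did, *Bhlhe40* and *Nfil3*, both higher, a share close to the 5.59% of the 9226 genes (3.6% of all genes). With a pseudocount of 0.5, 4 did by TGF-β, with *Noct* higher and *Fbxl21* lower in addition, beside 4.82% of all genes. *Bhlhe40* (chromosome 6, 108660629 to 108666925, plus strand), the repressor at E-boxes, had an FPKM of 18.5 (CTRL), 23.6 (GDF15) and 35.0 (TGF-β). Its ratio to CTRL was 1.28 (1.18 to 1.39) and 1.89 (1.75 to 2.05), with changes of 0.34 and 0.89. The change by TGF-β lay 4.70 local spreads above the local median and had the rank of 112 among the increases of all genes. *Nfil3* (chromosome 13, 52967209 to 52981073, minus strand), the repressor at D-boxes, had an FPKM of 4.03, 5.69 and 6.64, an estimated 136, 225 and 212 fragments. Its changes were 0.41 and 0.60, the latter 2.98 local spreads above the local median. For both genes CTRL was the lowest and TGF-β the highest library by FPKM.

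Paralogs had other values. *Bhlhe41* (DEC2), the paralog of *Bhlhe40*, had an FPKM of 6.32, 5.94 and 4.88, with changes of -0.08 and -0.32. *Tef*, which acts at D-boxes like *Dbp*, was level at 35.6, 35.6 and 36.0. *Hlf*, the remaining member of that family, was low at 0.459, 0.361 and 0.308. *Rora*, an activator at ROR elements, had an FPKM of 7.27, 7.89 and 5.75, and its change from GDF15 to TGF-β was -0.40, at -2.2 local spreads. *Ciart* (listed as *Gm129*), a repressor of the loop, had an FPKM of 1.84, 1.35 and 1.55. *Arntl2*, the paralog of *Arntl*, was at 0.938, 0.924 and 1.24. *Npas2*, the paralog of *Clock*, was at 0.0269, 0.0346 and 0.0704, an estimated 1.89, 2.85 and 4.70 fragments, and no fold is given for it. *Rorb*, a paralog of *Rora*, was listed at 0 in all 3 libraries.

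**Figure D3:**
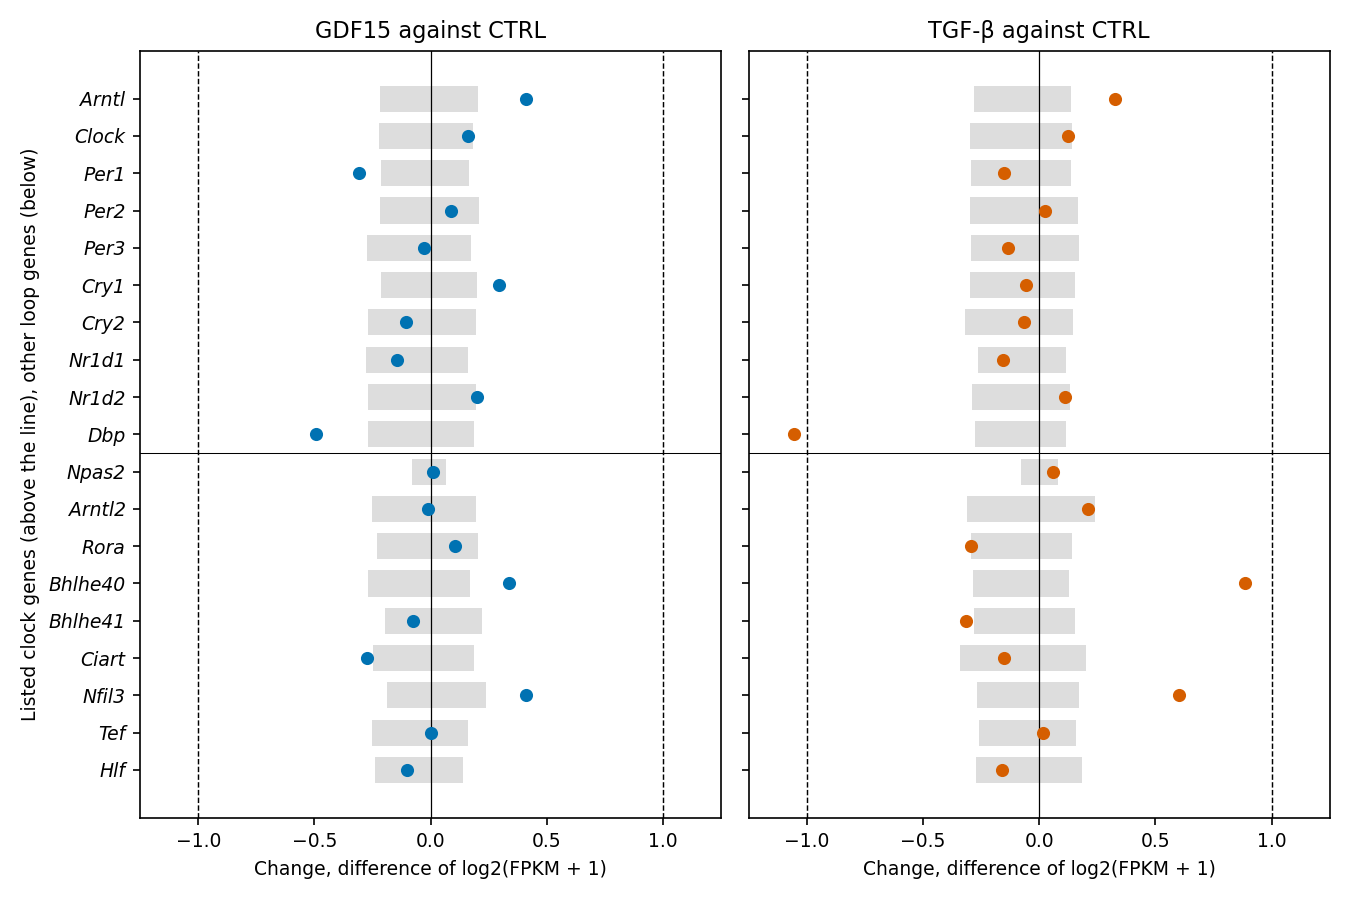
Changes on the log2(FPKM + 1) scale of the 10 clock genes (above the line) and the other loop genes except *Rorb* (below it), for GDF15 and TGF-β against CTRL. Grey bars are the local median plus and minus 1 local spread, and dashed lines mark 2-fold. In TGF-β, *Dbp* lies left of its bar at -1.05, and *Bhlhe40* and *Nfil3* lie right of theirs at 0.89 and 0.60.

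Ratios between genes of 1 library do not depend on how libraries are scaled. The FPKM ratio of *Dbp* to its antagonist *Nfil3* was 4.56 (CTRL), 2.25 (GDF15) and 1.26 (TGF-β). The ratio of *Dbp* to *Arntl*, which peak at different times of the day in a running clock, was 2.95, 1.49 and 1.03. The ratio of *Nr1d1* to *Arntl*, a repressor and its target, was 5.10, 3.33 and 3.52. That of *Tef* to *Nfil3* was 8.82, 6.27 and 5.42. CTRL had the highest of each of these ratios. That restates the levels above, since *Nfil3* and *Arntl* were lowest in CTRL while the other genes of the pairs were level or lower after stimulation. The pairs were not part of the planned results. CTRL was not the highest for *Nr1d1* to *Rora*, which compete at ROR elements, at 4.36, 3.62 and 4.92. Nor was it for *Arntl* to *Clock*, at 1.02, 1.24 and 1.19, or for *Cry2* to *Cry1*, given above.

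**Figure D4:**
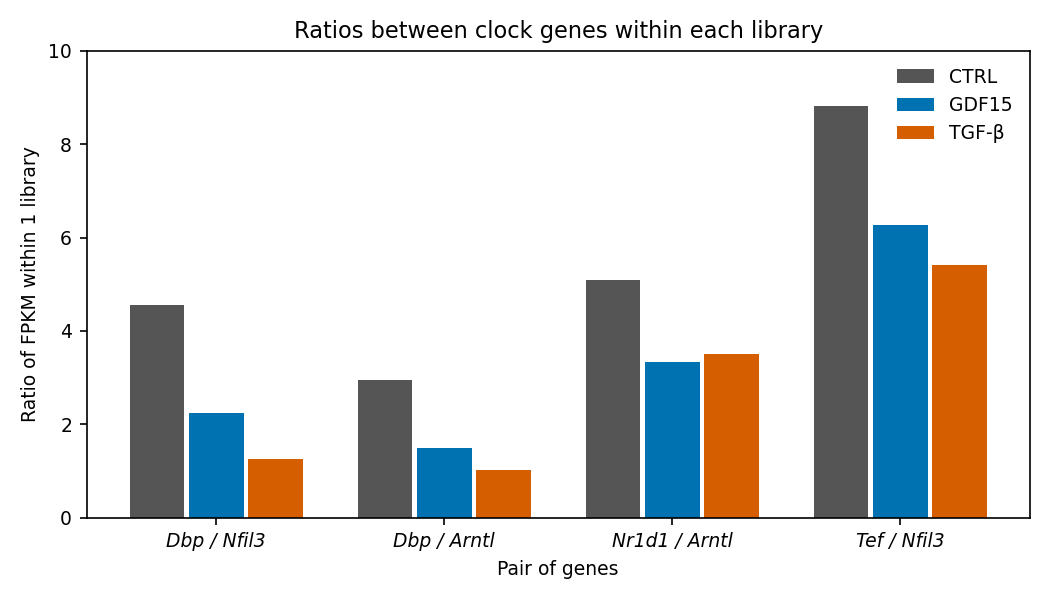
Ratio of the FPKM of 2 genes within 1 library, for 4 pairs. Each bar is 1 library, CTRL, GDF15 or TGF-β. The *Dbp* to *Nfil3* ratio steps from 4.56 to 2.25 and 1.26, and the *Dbp* to *Arntl* ratio from 2.95 to 1.49 and 1.03.

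The enzymes and cofactors that act on clock proteins, and further output genes, held 0 genes past 1.5-fold on the log2(FPKM + 1) scale in any of the 3 comparisons. In lists this short the shares over all genes on that scale, given above, also leave few or no genes past 1.5-fold. In plain FPKM *Noct* and *Fbxl21*, given below, passed 1.5-fold by TGF-β, and *Noct* also by GDF15. Of the 11081 genes above 0 in every library, 15.4% did so in plain FPKM by TGF-β and 12.0% by GDF15. The 8 kinase and ubiquitin ligase genes, which set the stability of PER and CRY proteins, had median changes of 0.05 by GDF15 and 0.04 by TGF-β, with 4 higher and 4 lower by each. By TGF-β, 6 were higher and 2 lower without the trend by transcript length. The 6 output genes had medians of 0.01 and -0.04, with 4 higher by GDF15, or 2 without the trend by transcript length, and 3 by TGF-β. Both lists stand beside the 44.4% and 37.2% of the 9226 genes that were higher. The 9 coregulator genes, which modify chromatin or bind the clock proteins, had medians of 0.14 and -0.05, the former -0.01 without the trend by transcript length. All 9 had a lower FPKM in TGF-β than in GDF15, with changes from -0.29 to -0.10, whereas 7 were lower and 2 higher without the trend by transcript length. For that comparison the median over the 9226 genes was -0.04, and 39.7% of them were higher. In it, 4 output genes were higher and 2 lower, and 6 loop genes were higher and 3 lower. Of the 8 kinase and ubiquitin ligase genes 2 were higher and 6 lower, but 6 higher and 2 lower without the trend by transcript length.

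Further genes of the list were chosen after their values were seen. *Noct* (listed as *Ccrn4l*), a rhythmic gene of the deadenylase family, had an FPKM of 0.708 (CTRL), 1.09 (GDF15) and 1.39 (TGF-β). Its FPKM ratio to CTRL was 1.54 (1.22 to 1.96) for GDF15 and 1.96 (1.56 to 2.49) for TGF-β, while its changes on the log2(FPKM + 1) scale were 0.29 and 0.48. *Fbxl21*, a ubiquitin ligase gene that acts on CRY proteins, had an FPKM of 1.33, 0.988 and 0.668, an estimated 43.6, 37.9 and 20.7 fragments. Its FPKM ratio of TGF-β to CTRL was 0.501 (0.285 to 0.867), with a change of -0.48. *Timeless*, a replication fork gene also linked to the clock, had an FPKM of 5.03, 3.77 and 3.44. *Wee1*, a cell cycle kinase gene under clock control, had an FPKM of 7.90, 8.83 and 6.27, and its change from GDF15 to TGF-β was -0.44.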

How the data were processed

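NIH3T3 fibroblasts without a factor (CTRL), with GDF15 and with TGF-β were compared, 1 pooled library each. Samples were grouped by their stimulation labels and columns by the treatment they name. The authors sequenced stranded mRNA in 50-base single-end mode, used Cufflinks for the deposited FPKM, and limited the table to UniProt-reviewed protein coding genes. The submitters' processing notes name TopHat 1.3.2, Bowtie 0.12.9, Cufflinks 2.0.2 and mm10. The annotation and the use of strand in counting are not given in the sources used here.

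The change is the difference of log2(FPKM + 1). With 1 library per treatment no test was made, and genes past 2-fold (the criterion of the study) or 1.5-fold were counted. Local medians and spreads (1.4826 times the median absolute deviation) used the 501 genes closest in mean FPKM. Depth was estimated from genes with 1 annotated transcript, as the smallest depth at which low FPKM times length lay near whole fragments. At these depths, 57.7% to 61.9% of values below 4.5 fragments were within 0.15 of a whole number. The commonest ratio of low values, which is free of length, gave depths relative to CTRL of 1.165 (GDF15) and 0.946 (TGF-β). Fragments per gene are estimates from the longest coding transcript. Intervals of levels are exact Poisson and those of ratios Clopper-Pearson, both 95%, and 3 fragments were the floor. Lengths, coordinates and exon overlaps came from GENCODE M21 (GRCm38, also named mm10), which matched 14682 of 15513 symbols directly and 745 by an older symbol.

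The members and lists were chosen with earlier results of these data known, and 1 gene of the planned list is not reported here. Named are all 10 members, the loop genes, listed genes past 1.5-fold, and genes of the table whose exons overlap those of a member, and the text marks further genes that were picked with their values in view. Alternatives were pseudocounts of 0.5 and 0.1 and none, a minimum mean FPKM of 1, scaling to 1 upper quartile, and subtraction of the running median by expression or of the trend by transcript length. Calculations were tested on simulated data. The software was Python 3.11.15 (numpy 2.4.6, pandas 2.3.3), with intervals from scipy 1.17.1 and plots from matplotlib 3.10.9.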

Additional observations from a re-analysis of the deposited data

How the results depend on the processing

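No paired analysis was possible because the columns carry no replicate numbers, and leaving out a library would remove a treatment. The median change of the 10 clock genes ran, over 7 alternatives, from -0.05 to 0.06 by GDF15, from -0.07 to 0.02 by TGF-β and from -0.09 to 0.00 for TGF-β against GDF15. The count of clock genes past 2-fold by TGF-β was 0, in place of 1 (*Dbp*), with 1 upper quartile for all libraries, without the running median by expression and without the trend by transcript length. The count past 1.5-fold for TGF-β against GDF15 was 1 (*Dbp*), in place of 0, with pseudocounts of 0.5 and 0.1 and with none. Of all genes 1.67% and 5.97% did so with these pseudocounts, and with none 10.3% of the 11081 genes above 0 in every library. Under the 6 alternatives that can alter the value of a single gene, 180 of 180 values of clock genes moved by less than the local spread, and 15 changed sign. The change of *Dbp* ran from -1.14 to -0.93 by TGF-β and from -0.52 to -0.38 by GDF15, and that of *Arntl* from 0.33 to 0.40 and from 0.41 to 0.47.

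For the 33 further clock-related genes, the counts past 1.5-fold under the alternatives were added after seeing the data. By TGF-β, 4 genes passed 1.5-fold with pseudocounts of 0.5 and 0.1 and 5 with none, in place of 2. The shares beside them were 4.82% and 9.93% of all genes and, with none, 15.4% of the 11081 genes above 0 in every library. By GDF15, 1 of the 33 did with no pseudocount, in place of 0, beside 12.0%. For TGF-β against GDF15, 1 did with no pseudocount (*Npas2*), in place of 0, beside 10.3%. Without the trend by transcript length 1 did (*Bhlhe40*), beside 0.944%.

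The counts over all genes moved most with the pseudocount. With pseudocounts of 0.5 and 0.1 and with none, the genes past 2-fold numbered 71, 315 and 589 by GDF15 (45 with a pseudocount of 1), 196, 489 and 789 by TGF-β (142 with 1) and 32, 227 and 525 for TGF-β against GDF15 (16 with 1). Those past 1.5-fold numbered 402, 1099 and 1333 (281 with 1), 750, 1544 and 1702 (560 with 1) and 260, 929 and 1145 (159 with 1), and by GDF15 181 without the trend by transcript length. Depth limits *Npas2*, which lies near the floor of 3 fragments.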
